A study of Gallus gallus with 20 samples.

Results

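Genes that carry a cell from growth arrest through DNA replication, mitosis and cell division were followed in chicken liver by bulk RNA sequencing. The list names 52 genes chosen for these roles, with earlier results of these data known, and found by symbol. The deposited table of counts holds 49 of them among 13956 entries named by a gene symbol, and 48 had enough counts to be tested among 10697 tested genes. CCNB2, AURKB and MKI67 had no entry under those symbols and were not analysed here. CDC6, which loads the replicative helicase, was in the table but below the filter, with 79 counts in replicate 1 of Cornish at 5 weeks, 31 and 13 counts in replicates 4 and 3 of Ogye at 5 weeks, and 0 to 5 counts in each other library. The study compared the liver transcriptomes of 2 breeds whose body weights diverge, Cornish, a meat breed, and Ogye, a Korean native breed. The 4 groups, of 5 libraries each, were Cornish at 10 weeks, Ogye at 10 weeks, Cornish at 5 weeks and Ogye at 5 weeks, all of liver and with no treatment named in the labels. The labels give no sex and no bird identity for any library, so the p-values measure the spread between these libraries.

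A dividing cell passes through G1, where D-type cyclins and E2F factors open the programme of S phase, through DNA synthesis at forks driven by the MCM helicase, and through mitosis, which cyclin B and CDK1 start and the anaphase-promoting complex ends. Most of these genes are transcribed mainly in cycling cells, the S-phase group under E2F and the mitotic group later under FOXM1 and MYB-type complexes. Adult hepatocytes rest outside the cycle and can re-enter it, and growing liver also holds dividing blood, endothelial and immune cells. Roles are given below as described in vertebrate, mainly mammalian, cells. In bulk RNA, fewer cells of a type and less RNA per cell cannot be told apart.

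Libraries held 14865637 to 31848768 counts, of which 9625549 to 21106844 fell on named genes. The 48 tested genes had 322 to 18265 counts each over the 20 libraries, with a median of 2045, and 18 of them had under 10 counts in at least 1 library, so their levels there are imprecise. Together they held 2429 to 44053 counts per library. Levels are given in CPM, counts per 1e+06 counts of named genes after scaling by the trimmed mean of M values (TMM). Differences are log2 fold changes ± standard error from a robust quasi-likelihood fit in edgeR, with p adjusted by Benjamini-Hochberg over all tested genes, and a gene was called at an adjusted p under 0.05. Genome positions are those of RefSeq for GRCg7b, which gives a position for 47 of the 48 genes and none for AURKA. On it 15 genes overlap another annotated gene, 10 of them a protein-coding one. The strand setting of the counting is not given in the sources used here, so counts of such genes may include reads of their neighbour.

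A single library, replicate 1 of Cornish at 5 weeks, stood far above the other 19 in these genes, and is called the outlying library below. In that library 46 of the 48 genes had their highest level among the 20 libraries, while 9.57% of all tested genes did. The exceptions were CCND1, a G1 cyclin, and BUB1, a spindle checkpoint kinase. The median gene stood 3.20 above its 20-library median on the log2 scale (0.5 CPM added), against medians between -0.66 and 0.99 in the other 19 libraries. Relative to the median of the other 4 Cornish libraries at 5 weeks, the ratio had a median of 10.9 and ran between 1.34 for CCND1 and 30.0 for RRM2. It was above 4 for 43 of the 48 genes, whereas 2.37% of all tested genes passed 4. Because the list was chosen with earlier results of these data known, these counts describe the library and test nothing. Every role took part, with a median ratio of 8.46 for the replication fork, 9.40 for nucleotide supply, 10.3 for cyclins and their kinases, 13.6 for chromosome structure, 10.5 for mitotic kinases, 12.3 for the spindle and 9 for cytokinesis. The summed level of the 49 genes in the table was 2140 CPM in this library and 332, 352, 279 and 337 CPM in replicates 2 to 5 of its group.

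**Figure D1:**
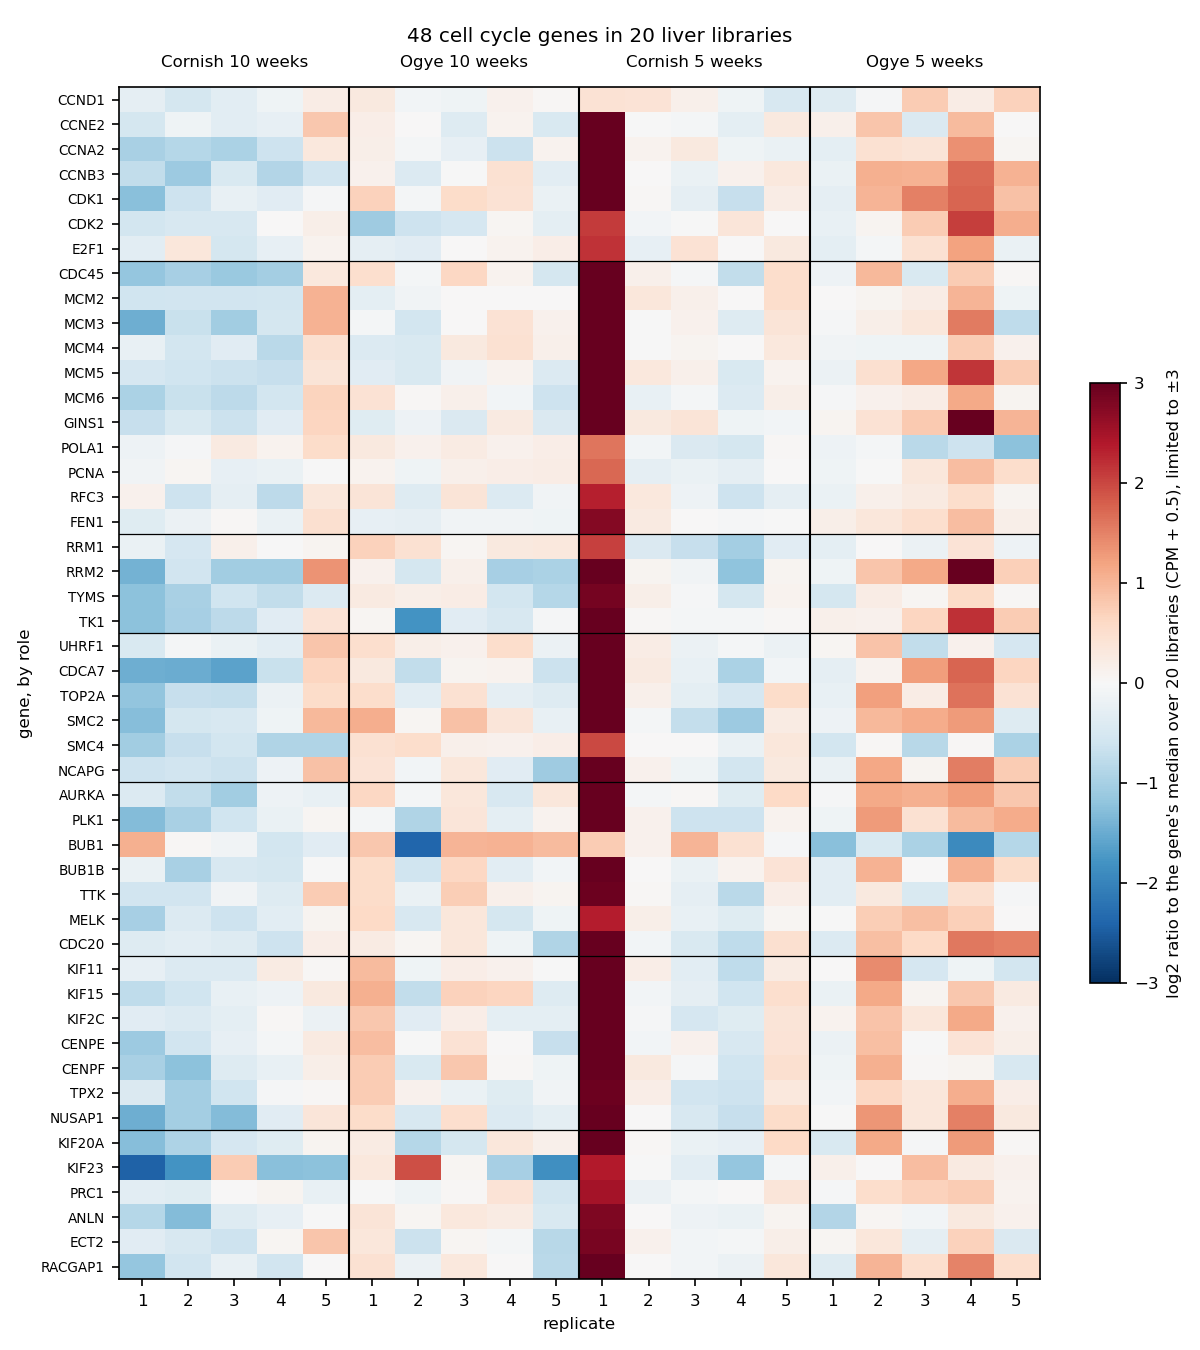
Level of each of the 48 tested genes (rows, grouped by role) in each of the 20 libraries (columns, by group and replicate), as the log2 ratio to the gene's median over the 20 libraries with 0.5 CPM added and colours limited to ±3. Replicate 1 of Cornish at 5 weeks is dark red in nearly every row, with a median of 3.20; BUB1 and CCND1 are not highest there.

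Other values set that library apart as well. Its 100 genes farthest above the highest of the other 4 Cornish libraries at 5 weeks included 34 genes of the list, 36 further genes of the cell cycle lists below and 30 others. Among the others, all chosen after their values were seen, was BRCA1, which acts in the repair of broken DNA (44.0 CPM, against at most 3.37 CPM in the other 4). The interferon-induced genes RSAD2 (84.4 CPM, against at most 8.10 CPM) and MX1 (234 CPM, against at most 32.1 CPM) were also among them, as was GZMA, a protease of cytotoxic lymphocytes (83.6 CPM, against at most 11.5 CPM). The library had 15030973 counts on named genes, inside the range of the others, and the highest TMM factor, 1.37. Because it decides the size and the direction of many differences, each comparison of the 48 genes is given with all 20 libraries and without it, the second fit testing 10765 genes.

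At 10 weeks the estimates were lower in Cornish than in Ogye for most of these genes, and SMC4 alone passed the test. Many of these genes moved together in single libraries, so counts of signs, here and below, are not counts of separate observations. The log2 fold change was negative for 43 of 48 genes, with a median of -0.49, against -0.03 over all tested genes. With all 20 libraries 0 genes were called higher and 1 lower, where 4.06% of all tested genes were called higher and 3.59% lower. Both counts lie below that background. Before adjustment 1 gene of the list had p under 0.05. Without replicate 1 of Cornish at 5 weeks, which is in neither group here but enters the joint fit, the median was -0.47. The count stayed at 0 higher and 1 lower, SMC4 again, where 4.19% and 3.57% of all genes were called. Then 9 genes had an unadjusted p under 0.05.

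At 5 weeks the direction of the breed difference turned on the outlying library. With it, 46 of 48 genes were higher in Cornish than in Ogye, with a median log2 fold change of 0.93, against 0.00 over all tested genes. BUB1 and SMC4 were called higher and 0 genes lower, beside 6.75% and 12.3% of all genes, so both counts lie below the background. Without it, 45 of 48 genes were lower in Cornish, with a median of -0.58, against -0.04 over all genes. BUB1 was called higher, and CCNB3, CDK1, PCNA, RRM1, PLK1 and CDC20 were called lower, 1 and 6 genes where 5.52% and 10.9% of all genes were called. The 6 lower genes are near that background and the 1 higher gene is below it, so these calls do not set the list apart. The median was -0.35 when all 20 libraries were kept and limma-voom gave each a quality weight. Such weights are lower for libraries that vary more, so that fit is not separate from leaving the outlying library out. The weight of that library is not given here. None of those 7 calls held without replicates 3, 4 and 5 of Ogye at 5 weeks as well. In these 3 libraries the 24 genes of the list of shorter span had median log2 ratios to the 20-library median of 0.49, 1.43 and 0.41, against 0.01, 0.48 and 0.02 for the 23 of longer span (split at 13.7 kb). Other libraries differed too, some the other way, as 0.46 against 0.74 in replicate 2 of Ogye at 5 weeks and 0.12 against 0.52 in replicate 1 of Ogye at 10 weeks. With all 4 libraries left out, the outlying one and replicates 3, 4 and 5 of Ogye at 5 weeks, the latter group keeps replicates 1 and 2. In that fit edgeR called 0 of 48 genes, 3 at an unadjusted p under 0.05. It called 0.614% of all tested genes there, so that 0 is near the background. The median was then -0.45. The log2 fold changes of CDK1 (-0.74), CCNB3 (-0.62), CDC20 (-0.68) and PCNA (-0.11) were smaller than before. Those of PLK1 (-1.21), BUB1 (1.25) and RRM1 (-0.49) moved less but rest on replicates 1 and 2 of Ogye. For PLK1 these had 1.33 and 4.3 CPM, the first inside the range of the 4 Cornish libraries, 0.781 to 1.66 CPM.

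Between 5 and 10 weeks in Cornish, all 48 log2 fold changes were negative, with a median of -2.09, against -0.04 over all tested genes. AURKA, BUB1B, CCNA2, CCNB3, CDC45, KIF20A, SMC4 and TYMS fell with age, 8 genes where 3.29% of all genes were called lower, and 0 rose where 4.07% were called higher. Without replicate 1 of Cornish at 5 weeks the median was -0.35, with 41 of 48 genes negative. Then SMC4 was the 1 gene called lower and 0 were called higher, beside 1.5% and 2.29% of all genes. At an unadjusted p under 0.05 there were 42 genes with that library and 6 without it. The other 7 calls also depended on libraries at 10 weeks. That of CCNB3 was lost without replicate 2, those of CCNA2, CDC45 and TYMS without any 1 of replicates 1 to 4, and those of AURKA, BUB1B and KIF20A without any 1 of the 5.

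In Ogye, 38 of 48 log2 fold changes with age were negative and 10 positive. With all libraries the median log2 fold change was -0.45, against 0.00 over all genes. BUB1 was higher and CDK2 and GINS1 were lower at 10 weeks, where 21.2% of all genes were called higher and 24.8% lower, so the 3 calls are few beside the background. Without the outlying Cornish library, which is in neither Ogye group but enters the joint fit, 3 genes were called higher (BUB1, POLA1 and SMC4) and 10 lower (CCNB3, CDK1, CDK2, MCM5, GINS1, FEN1, RRM2, TK1, PLK1 and CDC20). The shares over all genes were then 21.5% and 26.1%, so both counts lie below the background. Without replicates 3, 4 and 5 of Ogye at 5 weeks as well, replicates 1 and 2 remain at that age. In that fit edgeR called 0 of the 48 genes, 4 at an unadjusted p under 0.05, where 16.5% of all tested genes were called. The median was -0.30.

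The interaction, in which the breed difference at 5 weeks is subtracted from that at 10 weeks, asks whether the breeds change differently with age. Its median was -1.41 with all libraries, against -0.05 over all genes, and 0.16 without the outlying library, against 0.01. In both fits 0 genes were called positive and 2 negative, SMC4 and BUB1. Over all genes 13.3% were called positive and 10.1% negative with all libraries, and 12.6% and 8.83% without the outlying library. The 2 negative calls are few beside these shares. All 3 comparisons that use Cornish at 5 weeks share that library, and comparisons that share a group are not independent.

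**Figure D2:**
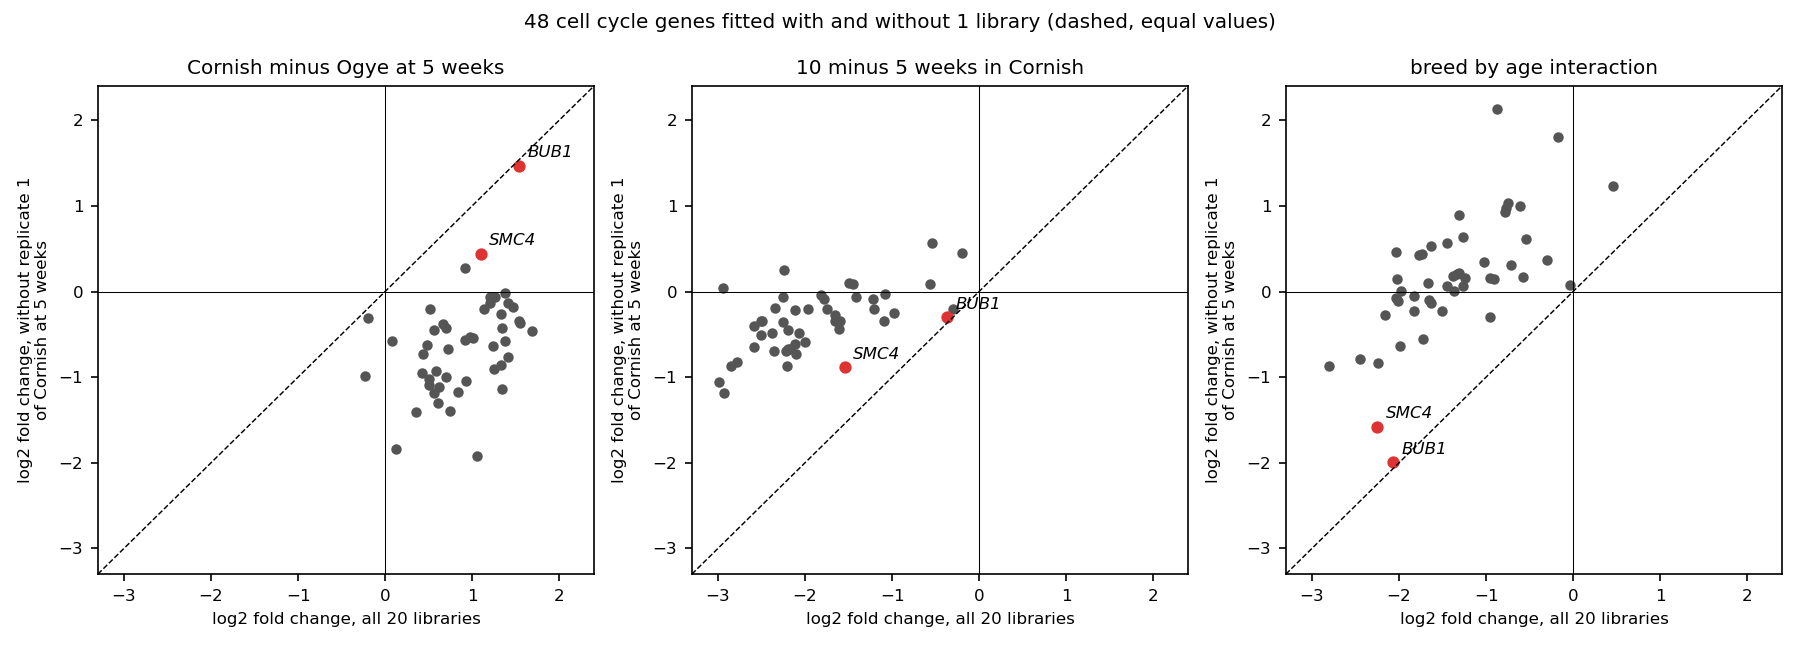
Log2 fold change of each of the 48 genes fitted with all 20 libraries (horizontal) and without replicate 1 of Cornish at 5 weeks (vertical), for the breed difference at 5 weeks, the change with age in Cornish, and the interaction. Most points lie far from the dashed line of equal values, and the medians move between 0.93 and -0.58, -2.09 and -0.35, and -1.41 and 0.16, while BUB1 lies near the line in all 3 panels.

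Cyclins, their kinases and E2F1 set the course of the cycle. CCND1, the D-type cyclin that starts it with CDK4 or CDK6, had 30.0, 25.0, 28.8, 32.9 and 42.2 CPM in Cornish at 10 weeks, 44.5, 34, 32.9, 39.7 and 37.1 CPM in Ogye at 10 weeks, 48.9, 47.8, 40.1, 32.8 and 26.0 CPM in Cornish at 5 weeks, and 27.6, 35.3, 62.0, 42.2 and 58.1 CPM in Ogye at 5 weeks. All 4 groups overlapped, and the outlying library, at 48.9 CPM, lay below replicates 3 and 5 of Ogye at 5 weeks. CCND1 passed the test in no comparison, with log2 fold changes between -0.30 and -0.04 with all libraries.

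CCNA2, the cyclin of S phase and early mitosis, had 2.84, 3.17, 2.94, 3.80 and 7.66 CPM in Cornish at 10 weeks, 7, 5.81, 5.10, 3.73 and 6.63 CPM in Ogye at 10 weeks, 62.4, 6.57, 7.57, 5.55 and 5.20 CPM in Cornish at 5 weeks, and 4.87, 8.51, 8.13, 16.7 and 6.40 CPM in Ogye at 5 weeks. The outlying library was far above the other 19, and in Cornish at 10 weeks 4 of the 5 libraries lay below all 5 of Cornish at 5 weeks. Its change with age in Cornish was -2.11 ± 0.61 (adjusted p = 0.042) with all libraries and -0.61 ± 0.34 (adjusted p = 0.33) without that one.

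CDK1, the kinase that drives entry into mitosis, had 1.23, 2.16, 3.01, 2.73 and 3.52 CPM in Cornish at 10 weeks, 6.16, 3.47, 5.47, 5.04 and 3.09 CPM in Ogye at 10 weeks, 58.2, 3.71, 2.88, 2.07 and 4.31 CPM in Cornish at 5 weeks, and 2.90, 7.90, 11.1, 13.4 and 7.14 CPM in Ogye at 5 weeks. Apart from the outlying library, 4 of the 5 Ogye libraries at 5 weeks lay above every Cornish library. The breed difference at 5 weeks was 0.75 ± 0.70 (adjusted p = 0.44) with all libraries and -1.40 ± 0.37 (adjusted p = 0.024) without replicate 1 of Cornish.

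CCNB3, a B-type cyclin on chromosome 4 (1790570 to 1793812), had 0.691, 0.433, 0.939, 0.574 and 0.828 CPM in Cornish at 10 weeks, 1.67, 1.01, 1.48, 2.22 and 1.09 CPM in Ogye at 10 weeks, 20.3, 1.49, 1.22, 1.68 and 1.97 CPM in Cornish at 5 weeks, and 1.23, 3.65, 3.62, 5.95 and 3.57 CPM in Ogye at 5 weeks. Cornish at 10 weeks was the lowest group, below every library of the other 3 groups. The nearest values rest on 15 counts in replicate 3 of Cornish (0.939 CPM) and 9 counts in replicate 2 of Ogye at 10 weeks (1.01 CPM). That gap is therefore imprecise. Its fall with age in Cornish was -2.93 ± 0.72 (adjusted p = 0.020) with all libraries, was -1.18 ± 0.37 (adjusted p = 0.082) without the outlying library, and was -1.19 ± 0.35 (adjusted p = 0.032) without that library and replicates 3, 4 and 5 of Ogye at 5 weeks. The Ogye libraries left out, a set chosen after seeing the data, are in neither Cornish group but enter the joint fit. The estimate hardly moved while the adjusted p fell. In that last fit 15.2% of all tested genes were called with age in Cornish and 19.9% between breeds at 10 weeks. At 10 weeks CCNB3 was also called lower in Cornish than in Ogye there (log2 fold change -1.10 ± 0.35, adjusted p = 0.037), again with those libraries in neither group.

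E2F1, a transcription factor of S-phase genes, had 6.30, 10.2, 5.39, 6.67 and 8.70 CPM in Cornish at 10 weeks, 6.58, 6.15, 7.98, 8.68 and 9.26 CPM in Ogye at 10 weeks, 37.7, 6.70, 11.0, 8.02 and 9.88 CPM in Cornish at 5 weeks, and 6.45, 7.60, 11.2, 19.0 and 6.92 CPM in Ogye at 5 weeks. The groups overlapped, and it was called in no comparison of either fit. CDK2, the S-phase kinase partner of cyclins E and A, had 2 to 4.94 CPM in Ogye at 10 weeks and 3.99, 5.04, 8.25, 21.4 and 10.6 CPM in Ogye at 5 weeks. Its change with age in Ogye was -1.55 ± 0.48 (adjusted p = 0.014), with 21.4 CPM in replicate 4 at 5 weeks the highest value and the call lost without that replicate. CCNE2, which pairs with CDK2 at the start of S phase, had 8.26 CPM in replicate 1 of Cornish at 5 weeks and at most 1.32 CPM elsewhere.

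Genes of the replication fork, 11 tested, had a median log2 fold change with age in Cornish of -1.66 with all libraries and -0.34 without the outlying one. MCM2, a subunit of the hexameric helicase, had 6.38, 6.49, 6.45, 6.67 and 21.0 CPM in Cornish at 10 weeks, 8, 9.17, 9.90, 9.89 and 9.89 CPM in Ogye at 10 weeks, 99.8, 12.5, 11.0, 9.92 and 14.4 CPM in Cornish at 5 weeks, and 9.89, 10.6, 11.7, 20.6 and 9 CPM in Ogye at 5 weeks. In Cornish at 10 weeks replicate 5 was the second highest of all 20 libraries, while the other 4 were the lowest. MCM2 was not called in any comparison, and its breed difference at 10 weeks was -0.01 ± 0.56 (adjusted p = 1) with all libraries.

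The same library led its group for the other MCM subunits. In replicate 5 of Cornish at 10 weeks MCM3, MCM4, MCM5 and MCM6 had 8.90, 12.6, 6 and 16.6 CPM, each the highest of its group. CDC45, which joins MCM and GINS in the active helicase, had 0.461, 0.577, 0.501, 0.574 and 2.17 CPM in Cornish at 10 weeks and 25.9, 1.92, 1.61, 0.793 and 2.62 CPM in Cornish at 5 weeks. It fell with age in Cornish by 2.99 ± 0.81 on the log2 scale (adjusted p = 0.032) with all libraries, a call lost without replicate 1 of Cornish at 5 weeks. GINS1, a subunit of GINS, had 8.86 CPM in replicate 4 of Ogye at 5 weeks and 0.738, 1.09, 1.52 and 1.86 CPM in the other 4, against 0.363 to 0.908 CPM in Ogye at 10 weeks. Its change with age in Ogye, -2.42 ± 0.93 (adjusted p = 0.039), was lost without that replicate and without any 1 of replicates 1, 2, 3 and 5 at 10 weeks.

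PCNA, the sliding clamp of DNA polymerase, had 32.6, 36.6, 29.5, 30.9 and 35.0 CPM in Cornish at 10 weeks, 38.1, 32.4, 39.5, 40.2 and 41.4 CPM in Ogye at 10 weeks, 119, 29.0, 30.5, 29.4 and 35.5 CPM in Cornish at 5 weeks, and 32.2, 35.1, 44.5, 67.1 and 51.2 CPM in Ogye at 5 weeks. Its highest values after the outlying library were those of replicates 3, 4 and 5 of Ogye at 5 weeks. The breed difference at 5 weeks was 0.08 ± 0.32 (adjusted p = 0.87) with all libraries and -0.58 ± 0.18 (adjusted p = 0.036) without replicate 1 of Cornish.

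POLA1, the catalytic subunit of the polymerase that primes synthesis, went the other way in Ogye. It had 9.91, 8.83, 9.60, 8.78 and 9.17 CPM at 10 weeks and 7.14, 7.68, 4.32, 4.96 and 3.12 CPM at 5 weeks, with no overlap. POLA1 spans 192 kb, the longest of the list, and its 3 lowest libraries are replicates 3, 4 and 5 of Ogye at 5 weeks. Without the outlying Cornish library its change was 0.75 ± 0.21 (adjusted p = 0.0076). FEN1, which trims the flaps of lagging-strand fragments and spans 2.68 kb, had 4.47 to 5.14 CPM at 10 weeks and 6.32 to 11.0 CPM at 5 weeks in Ogye, and changed (log2 fold change -0.70 ± 0.19, adjusted p = 0.0063) in the same fit. The part of gene span in either change was not tested.

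The 4 genes of nucleotide supply make and recover the building blocks of DNA. RRM2, the cell cycle-regulated subunit of ribonucleotide reductase, had 1.38, 2.89, 1.94, 1.94 and 12.2 CPM in Cornish at 10 weeks, 5.00, 3.02, 5.10, 2.02 and 2.09 CPM in Ogye at 10 weeks, 136, 4.86, 4.20, 1.68 and 4.87 CPM in Cornish at 5 weeks, and 4.08, 8.47, 10.5, 42.0 and 7.81 CPM in Ogye at 5 weeks. In 3 of the 4 groups 1 library stood well above the others. Its log2 fold change with age in Cornish was -2.94 ± 1.05 (adjusted p = 0.085) with all libraries and 0.04 ± 0.67 (adjusted p = 0.99) without the outlying one.

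TYMS, which makes thymidylate, had 1.08, 1.37, 1.94, 1.72 and 2.28 CPM in Cornish at 10 weeks, 3.91, 3.69, 3.84, 2.02 and 1.54 CPM in Ogye at 10 weeks, 26.4, 3.67, 3.12, 2.07 and 3.47 CPM in Cornish at 5 weeks, and 2.07, 3.82, 3.36, 5.02 and 3.27 CPM in Ogye at 5 weeks. In Cornish, 4 of the 5 libraries at 10 weeks lay below all those at 5 weeks. The change was -2.21 ± 0.58 (adjusted p = 0.027) with all libraries and -0.87 ± 0.31 (adjusted p = 0.12) without replicate 1 at 5 weeks.

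TK1, the thymidine kinase of S phase, had 2.92, 3.46, 4.13, 5.81 and 10.0 CPM in Cornish at 10 weeks, 7.83, 1.79, 5.84, 5.14 and 7.26 CPM in Ogye at 10 weeks, 80.2, 7.68, 7.18, 7.10 and 7.64 CPM in Cornish at 5 weeks, and 8.37, 8.25, 12, 36.1 and 12.9 CPM in Ogye at 5 weeks. The 2 ages of Ogye did not overlap, and the 4 lower Cornish libraries at 5 weeks lay between 7.10 and 7.68 CPM. Its change with age in Ogye was -1.46 ± 0.68 (adjusted p = 0.083) with all libraries and -1.49 ± 0.43 (adjusted p = 0.0094) without the outlying Cornish library. RRM1, the large subunit of ribonucleotide reductase, had 44.5, 7.55, 6.20, 4.89 and 8.06 CPM in Cornish at 5 weeks and 8.37, 10.4, 9.08, 13.9 and 9.30 CPM in Ogye at 5 weeks, a difference of -0.63 ± 0.19 (adjusted p = 0.038) without that library. Without the 4 libraries named above RRM1 was called higher at 10 than at 5 weeks in Cornish, by 0.55 ± 0.18 (adjusted p = 0.046), against the direction of most of the list. In that fit 15.2% of all tested genes were called in this comparison. The set left out was chosen after seeing the data, and its Ogye libraries are in neither Cornish group. With all 20 libraries the change of RRM1 was negative, as for all 48 genes.

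**Figure D3:**
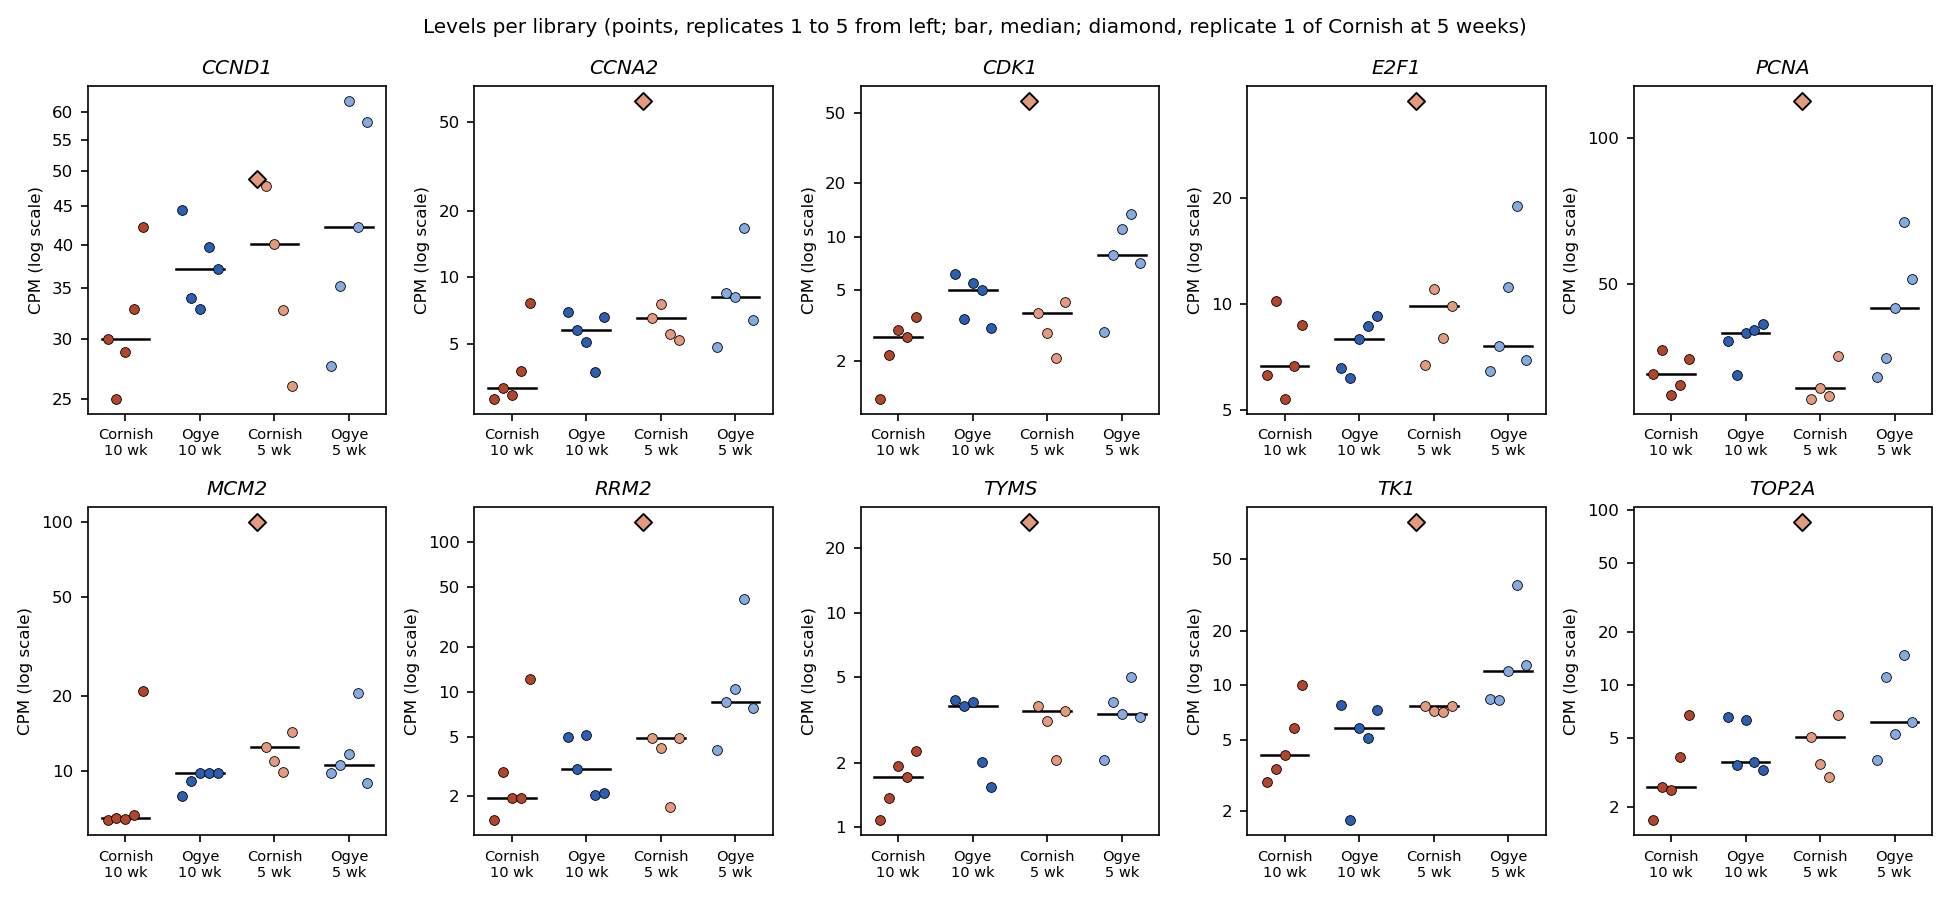
Level in CPM (log scale) of 10 genes in each library, by group; points are replicates 1 to 5 from left to right, bars are group medians and the diamond is replicate 1 of Cornish at 5 weeks. The diamond lies far above all other points in every panel but that of CCND1, at 62.4 CPM for CCNA2, 136 CPM for RRM2 and 85.1 CPM for TOP2A.

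Genes of chromatin and chromosome structure mark, untangle and fold the DNA once it is copied. TOP2A, the topoisomerase that untangles sister chromatids, had 1.69, 2.60, 2.50, 3.87 and 6.73 CPM in Cornish at 10 weeks, 6.58, 3.47, 6.28, 3.63 and 3.27 CPM in Ogye at 10 weeks, 85.1, 5.03, 3.56, 3 and 6.75 CPM in Cornish at 5 weeks, and 3.74, 11.1, 5.27, 14.9 and 6.17 CPM in Ogye at 5 weeks. Outside the outlying library the groups overlapped. TOP2A was called in no comparison, with a change with age in Cornish of -2.59 ± 0.79 (adjusted p = 0.052) with all libraries and -0.40 ± 0.42 (adjusted p = 0.65) without that one. UHRF1, which guides maintenance methylation, and CDCA7, which works with a chromatin remodeller, had 57.8 and 73.6 CPM in the outlying library and at most 10.7 and 19.2 CPM elsewhere.

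SMC4, the ATPase that forms the core of condensin with SMC2 and folds mitotic chromosomes, lies on chromosome 9 (21869868 to 21903241). It had 9.83, 12.8, 14.1, 10.9 and 11.0 CPM in Cornish at 10 weeks, 29.0, 30.4, 23.5, 23.2 and 24.2 CPM in Ogye at 10 weeks, 83.5, 21.0, 20.9, 18.2 and 26.8 CPM in Cornish at 5 weeks, and 14.2, 21.4, 11.5, 21.6 and 10.6 CPM in Ogye at 5 weeks. At 10 weeks every Cornish library lay below every Ogye library, with means of 11.7 ± 1.71 CPM in Cornish and 26.1 ± 3.38 CPM in Ogye (SD, n = 5 each). Within Cornish, too, all libraries at 10 weeks lay below all those at 5 weeks, and within Ogye all at 10 weeks lay above all at 5 weeks.

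The breed difference of SMC4 at 10 weeks was -1.15 ± 0.34 (adjusted p = 0.047) with all libraries and -1.14 ± 0.19 (adjusted p = 0.0026) without the outlying library. With all libraries that call is close to the threshold and was lost when any 1 of the 10 compared libraries was left out; its adjusted p ran between 0.00021 and 0.098 over the 20 alternatives. At 5 weeks the breed difference was 1.10 ± 0.34 (adjusted p = 0.031) with all libraries and 0.44 ± 0.20 (adjusted p = 0.12) without the outlying one, and the call was also lost without replicate 3 or 5 of Ogye. Its fall with age in Cornish was -1.54 ± 0.34 (adjusted p = 0.013) and -0.88 ± 0.20 (adjusted p = 0.021) in the same fits. The interaction was -2.25 ± 0.48 (adjusted p = 0.0037) and -1.58 ± 0.27 (adjusted p = 0.0014). Both of these last calls held in each alternative run, 20 for the change in Cornish with adjusted p between 5e-04 and 0.034, and 29 for the interaction with adjusted p between 9.3e-05 and 0.027.

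SMC4 overlaps TRIM59 and the microRNA genes MIR15B and MIR16-2 on RefSeq. Its partners did not share its pattern as calls. SMC2 had 1.54, 2.96, 3.07, 4.02 and 9.21 CPM in Cornish at 10 weeks and 9.99, 4.70, 8.72, 5.85 and 3.72 CPM in Ogye at 10 weeks, with overlap, and NCAPG, a further condensin subunit, had 1.13 to 4.24 CPM and 0.726 to 2.91 CPM in those groups. Neither was called in any comparison of either fit.

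BUB1, a kinase of the checkpoint that delays anaphase until kinetochores are attached, lies on chromosome 3 (3285335 to 3305122) and overlaps LOC121110243. It had 106, 51.5, 46.8, 33.9 and 39.1 CPM in Cornish at 10 weeks, 88.9, 9.28, 102, 104 and 96.9 CPM in Ogye at 10 weeks, 84.7, 54.6, 102, 68.8 and 48.9 CPM in Cornish at 5 weeks, and 20.9, 36.6, 25.8, 12.9 and 27.4 CPM in Ogye at 5 weeks. It did not follow the other genes of the list, since replicate 1 of Cornish at 5 weeks ranked 7 of 20 and replicate 4 of Ogye at 5 weeks was the lowest of its group. At 5 weeks all Cornish libraries lay above all Ogye libraries.

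That difference of BUB1 was 1.54 ± 0.45 (adjusted p = 0.027) with all libraries and 1.47 ± 0.48 (adjusted p = 0.045) without the outlying one. Its rise with age in Ogye was 1.70 ± 0.45 (adjusted p = 0.0056) and its interaction -2.07 ± 0.63 (adjusted p = 0.024) with all libraries, although replicate 2 of Ogye at 10 weeks, at 9.28 CPM, was the lowest of all 20. All 3 calls were lost without replicates 3, 4 and 5 of Ogye at 5 weeks, and that at 5 weeks also without any 1 of these 3 or replicate 3 of Cornish, with adjusted p up to 0.44 at 5 weeks, 0.15 for the rise in Ogye and 0.17 for the interaction. Without these 3 libraries Ogye at 5 weeks keeps replicates 1 and 2. When the outlying library was left out too, the log2 fold changes of BUB1 were 1.25 ± 0.69, 1.48 ± 0.68 and -1.79 ± 0.84 in that order. They kept their direction, with larger standard errors.

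**Figure D4:**
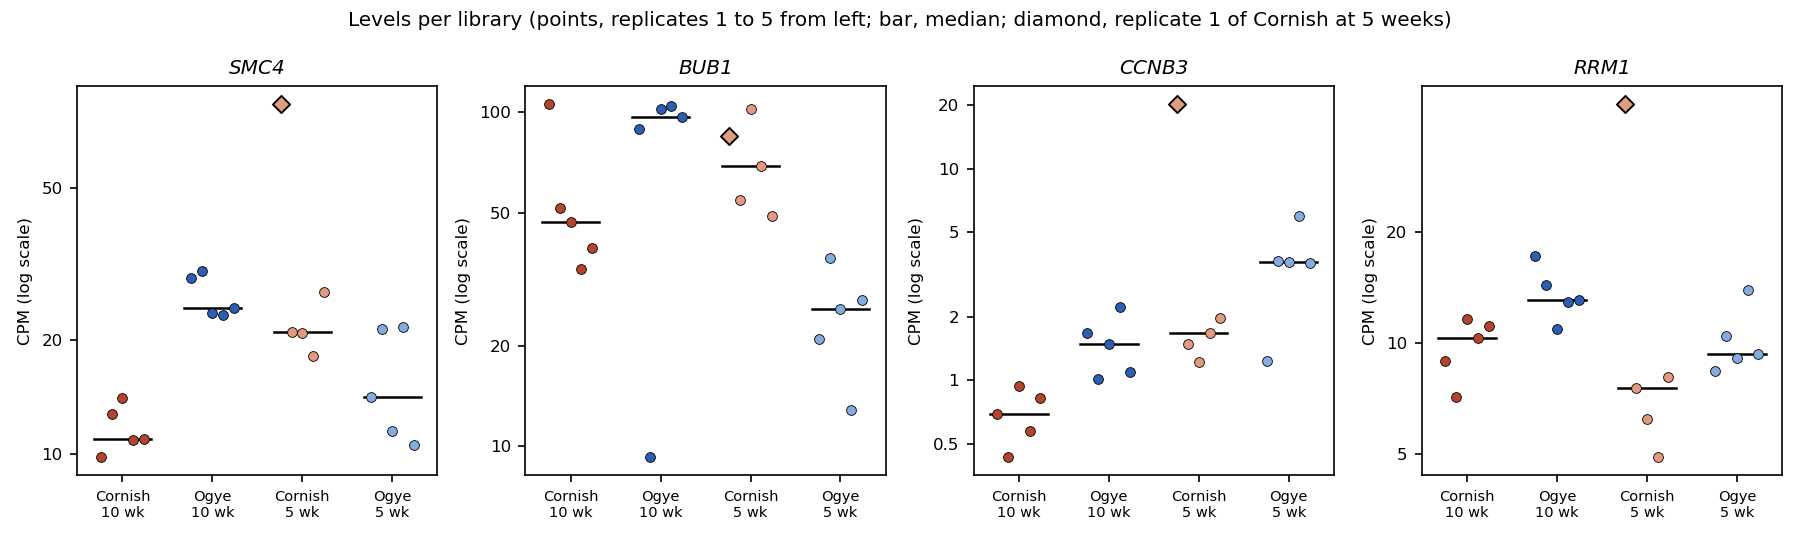
Level in CPM (log scale) of SMC4, BUB1, CCNB3 and RRM1 in each library, drawn as in the plot of 10 genes. For SMC4 the 5 Cornish libraries at 10 weeks (9.83 to 14.1 CPM) lie below every Ogye library at 10 weeks (23.2 to 30.4 CPM), and for BUB1 the diamond at 84.7 CPM lies among the other Cornish libraries at 5 weeks.

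The other mitotic kinases and checkpoint genes followed the outlying library. AURKA, the kinase of spindle poles, had 0.768, 0.505, 0.313, 1 and 0.932 CPM in Cornish at 10 weeks and 20.2, 1.11, 1.22, 0.793 and 2.01 CPM in Cornish at 5 weeks. BUB1B, a checkpoint inhibitor of the anaphase-promoting complex, had 0.649 to 1.76 CPM at 10 weeks and 19.5, 1.79, 1.46, 1.94 and 2.53 CPM at 5 weeks in Cornish. Their changes with age in Cornish, -2.85 ± 0.77 (adjusted p = 0.032) and -2.17 ± 0.65 (adjusted p = 0.048), were both lost without replicate 1 at 5 weeks.

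PLK1, a kinase of mitotic entry and exit, had 17.9, 1.66, 0.781, 0.793 and 1.64 CPM in Cornish at 5 weeks and 1.33, 4.3, 2.22, 3.30 and 3.79 CPM in Ogye at 5 weeks. CDC20, the activator of the anaphase-promoting complex, had 16.8, 1.36, 0.928, 0.661 and 2.25 CPM in Cornish and 0.984, 3.17, 2.48, 5.42 and 5.13 CPM in Ogye at 5 weeks. Without the outlying library both genes were called lower in Cornish, PLK1 at -1.30 ± 0.43 (adjusted p = 0.048) and CDC20 at -1.41 ± 0.45 (adjusted p = 0.044). TTK and MELK, further mitotic kinases, were called in no comparison and had 17.7 and 5.39 CPM in the outlying library, with at most 3.52 and 1.65 CPM elsewhere.

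The 7 genes of the spindle, kinetochore and motors (KIF11, KIF15, KIF2C, CENPE, CENPF, TPX2 and NUSAP1) were called in no comparison of either fit. KIF11, the motor that separates spindle poles, had 34.3 CPM in the outlying library and 1.45 to 8.42 CPM elsewhere. Within Ogye, replicate 1 at 10 weeks was the highest of its group for 6 of these 7 genes, with a median ratio of 1.99 to the other 4, where 14.7% of all tested genes were highest there. Replicate 2 at 5 weeks was the highest for 4 of the 7 but for 10 of the 48, where 21% of all tested genes were highest there and 15% were over 2-fold above the median of the other 4. CENPE, a kinetochore motor, had 5.00 CPM in replicate 1, against 1.27 to 3.40 CPM in the other Ogye libraries at 10 weeks.

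Among the 6 genes of cytokinesis, KIF20A, a motor of the spindle midzone, was called lower at 10 weeks in Cornish. It had 0.461, 0.721, 1.13, 1.29 and 1.97 CPM at 10 weeks and 30.2, 1.88, 1.51, 1.45 and 3 CPM at 5 weeks, a change of -2.78 ± 0.79 (adjusted p = 0.040) that was lost without replicate 1 at 5 weeks. KIF23, which forms centralspindlin with RACGAP1, was scattered within groups, with 0.615, 1.23, 9.58, 2.01 and 2.07 CPM in Cornish at 10 weeks and 7, 22.6, 5.76, 2.52 and 1.18 CPM in Ogye at 10 weeks. PRC1, which bundles midzone microtubules, and ANLN, ECT2 and RACGAP1, which place and close the contractile ring, were called in no comparison.

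After the outlying library, a second tier of libraries stood above their groups. Replicate 4 of Ogye at 5 weeks was the highest of its group for 35 of 48 genes, where 23.1% of all tested genes were highest there, and 19 genes were over 2-fold above the median of the other 4, as were 4.55% of all tested genes. Its ratios were larger for genes of nucleotide supply, with a median of 2.53, than for mitotic kinases, with a median of 1.32. Its medians for shorter and longer genes were 1.43 and 0.48, as given above, and other libraries differed in either direction. The part of gene length in these values was not tested.

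Replicate 5 of Cornish at 10 weeks was the highest of its group for 37 of 48 genes, where 22.6% of all tested genes were highest there. It was over 2-fold above the median of the other 4 for 22 genes, as it was for 2.19% of all tested genes, with a median ratio of 2.85 for chromosome structure and 2.18 for the replication fork, and its medians for shorter and longer genes were 0.31 and 0.22. The summed level of the 49 genes was 278, 236, 246, 240 and 370 CPM in Cornish at 10 weeks, 421, 272, 396, 383 and 349 CPM in Ogye at 10 weeks, 2140, 332, 352, 279 and 337 CPM in Cornish at 5 weeks, and 252, 386, 382, 593 and 353 CPM in Ogye at 5 weeks. Without BUB1 the sums ran over 172 to 330, 252 to 332, 210 to 2060 and 231 to 581 CPM in the same order of groups.

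Further cell cycle genes, in lists that do not repeat the 52, showed how far the pattern reached. Replicate 1 of Cornish at 5 weeks was the highest of 20 for 63 of 68 tested genes of mitosis and cytokinesis and 36 of 47 of the start of replication and forks. The counts were 5 of 22 for G1 entry and the E2F family, 8 of 34 for brakes of the cycle and 4 of 12 for the anaphase-promoting complex. Of all tested genes, 9.57% were highest there. These lists too were chosen with earlier results of these data known, so the counts are a description. The mitosis list held 0 called genes in the breed comparison at 10 weeks, with 1 higher and 1 lower without that library. At 5 weeks it held 2 higher and 0 lower, and 1 higher and 15 lower without it, beside 6.75% and 12.3%, and 5.52% and 10.9%, of all tested genes. Without the outlying library the list summed to 243 to 335 CPM in Cornish at 5 weeks. In replicates 1 to 5 of Ogye at 5 weeks it summed to 315, 407, 417, 558 and 391 CPM. With age in Cornish the list held 10 lower genes, and 0 without the outlying library, its median log2 fold change being -1.69 and -0.27. With age in Ogye it held 2 higher and 13 lower, and 2 and 23 without that Cornish library, beside 21.2% and 24.8%, and 21.5% and 26.1%, of all tested genes. In the interaction 1 was positive and 2 negative, and 9 and 2 without it, with medians of -1.09 and 0.33. FOXM1, a factor of mitotic transcription, had 9.13 CPM in the outlying library and 0.397 to 0.938 CPM in the rest of its group.

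The replication list had 0 genes higher and 3 lower in Cornish at 10 weeks, which were POLE2, ORC5 and ORC2. POLE2, a subunit of DNA polymerase epsilon, had 10.3, 7.43, 9.52, 12 and 7.66 CPM in Cornish at 10 weeks, 17.9, 23.9, 19.4, 19.5 and 16.6 CPM in Ogye at 10 weeks, 21.8, 17.4, 19.5, 16.5 and 18.2 CPM in Cornish at 5 weeks, and 11.2, 15.1, 16.9, 17.1 and 18.4 CPM in Ogye at 5 weeks. Cornish at 10 weeks lay below every library of the other groups except replicate 1 of Ogye at 5 weeks. The breed difference at 10 weeks was -1.05 ± 0.16 (adjusted p = 0.0013), and the outlying library, at 21.8 CPM, was below replicate 2 of Ogye at 10 weeks. It also fell with age in Cornish by 0.99 ± 0.16 on the log2 scale (adjusted p = 0.0015), and in the fit without the outlying library by 0.92 ± 0.17 (adjusted p = 0.0063). ORC2 and ORC5, subunits of the complex that marks origins, were lower in Cornish at 10 weeks, ORC2 at -1.12 ± 0.28 (adjusted p = 0.019) and ORC5 at -1.03 ± 0.24 (adjusted p = 0.013). The list held 2 higher and 1 lower at 5 weeks, 0 and 6 with age in Cornish, 2 and 14 with age in Ogye (beside 21.2% and 24.8% of all genes), and 2 positive and 5 negative in the interaction. Without the outlying library 14 were lower in Cornish at 5 weeks, among them RPA3 and RFC5, where 10.9% of all tested genes were called lower. In that fit 1 fell with age in Cornish, and the interaction had 8 positive and 3 negative genes. The list summed to 399, 444, 603, 645 and 535 CPM in replicates 1 to 5 of Ogye at 5 weeks. In Cornish at 5 weeks it summed to 384 to 429 CPM without the outlying library. Counts of this list and the mitosis list without replicates 3, 4 and 5 of Ogye are not given here.

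Among the brakes of the cycle, CDKN2B, an inhibitor of CDK4 and CDK6, had 1.86 to 3.03 CPM in Cornish at 10 weeks, 3.35 to 17.7 CPM in Ogye at 10 weeks, 15 to 33.1 CPM in Cornish at 5 weeks and 1.48 to 15.8 CPM in Ogye at 5 weeks. It was lower in Cornish at 10 weeks (log2 fold change -2.01 ± 0.52, adjusted p = 0.023), higher in Cornish at 5 weeks by 1.57 ± 0.48 (adjusted p = 0.031), and fell with age in Cornish by 3.14 ± 0.53 on the log2 scale (adjusted p = 0.0020). CDKN1A, an inhibitor that p53 induces, had 0.545 to 2.35 CPM at 10 weeks and 2.26, 4.60, 16.1, 25.4 and 30.9 CPM at 5 weeks in Ogye, a difference of -3.74 ± 0.84 (adjusted p = 0.0017). The 3 high values are replicates 3, 4 and 5 at 5 weeks, and without them and the outlying library the difference was -1.55 ± 0.84 (adjusted p = 0.21). In that fit the breed differences at 5 weeks of CDKN2B, 2.70 ± 0.58 (adjusted p = 0.051), and CDK3, -2.10 ± 0.51 (adjusted p = 0.068), also missed the threshold. The list had 1 gene higher and 2 lower at 10 weeks, 4 and 0 at 5 weeks, 0 and 1 with age in Cornish, 6 and 9 with age in Ogye, and 2 positive and 5 negative in the interaction. Without the outlying library these counts were 1 and 2, 3 and 1, 0 and 1, 5 and 10, and 2 and 4. In the G1 list CDK3, a kinase of G1, was higher in Cornish at 10 weeks by 2.78 ± 0.50 (adjusted p = 0.0035) and lower at 5 weeks (log2 fold change -1.85 ± 0.43, adjusted p = 0.011), and MYC, a growth-promoting factor, fell with age in Ogye by 1.21 ± 0.25 (adjusted p = 0.0011).

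The G1 list held 1 higher and 0 lower at 10 weeks, 1 and 2 at 5 weeks, 0 and 1 with age in Cornish, 2 and 9 with age in Ogye, and 1 positive and 3 negative in the interaction. Without the outlying library they were 1 and 0, 1 and 4, 1 and 0, 3 and 9, and 3 and 2. The anaphase-promoting complex held 0 called genes at 10 weeks and with age in Cornish, 1 higher and 1 lower at 5 weeks, 1 and 5 with age in Ogye, and 0 positive and 3 negative in the interaction, with 1 and 0 at 5 weeks and 0 and 2 in the interaction without that library. CDC27, a core subunit of it, rose with age in Ogye by 0.69 ± 0.11 (adjusted p = 0.00018). The calls given for CDKN2B, CDKN1A, CDK3, MYC, CDC27, ORC2 and ORC5 all passed without the outlying library too, with adjusted p up to 0.041. Over all tested genes, the shares called higher and lower were 4.06% and 3.59% at 10 weeks and 6.75% and 12.3% at 5 weeks. They were 4.07% and 3.29% with age in Cornish, 21.2% and 24.8% in Ogye, and 13.3% and 10.1% in the interaction. Without the outlying library they were 4.19% and 3.57%, 5.52% and 10.9%, 2.29% and 1.5%, 21.5% and 26.1%, and 12.6% and 8.83% in that order.

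Markers of the cell types in liver were read beside these values. In replicate 1 of Cornish at 5 weeks the 17 markers of T and NK cells summed to 344 CPM, against 109 to 157 CPM in the other 4 libraries of its group. That sum includes GZMA, already given above, at 83.6 CPM against at most 11.5 CPM, so the 2 values are not separate observations. Of the 17 markers, 7 had their highest level of the 20 libraries there, as did 9.57% of all tested genes. CD3D and CD3E, chains of the T cell receptor complex, had 62.6 and 60.8 CPM, against 15.8 to 28.3 and 21.4 to 31.9 CPM, and IL7R, a cytokine receptor of lymphocytes, had 22.7 CPM, against 11.5 to 21.0 CPM. The 16 hepatocyte markers summed to 150000 CPM, against 226000 to 251000 CPM, and 8 of 16 were the lowest of the 20 libraries. The share of all tested genes lowest there is not given here. ALB, serum albumin, which hepatocytes make, had 94400 CPM in that library, against 140000 to 171000 CPM in the other 4, and at least 48600 CPM in each of the 20.

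In the same library the other marker sums were 1860 CPM for macrophages, against 1530 to 1930 CPM in the rest of the group, 240 CPM for heterophils, against 161 to 471 CPM, 154 CPM for B and plasma cells, against 76.8 to 554 CPM, and 116 CPM for red cells and erythroblasts, against 126 to 201 CPM. Thrombocyte markers summed to 23.2 CPM, against 28.8 to 36.4 CPM, endothelial markers to 403 CPM, against 529 to 728 CPM, stellate cell markers to 300 CPM, against 567 to 725 CPM, and bile duct markers to 68.3 CPM, against 61.6 to 102 CPM. PAX5, CD72 and TNFRSF13C, picked from the 15 B and plasma cell markers in the table, had 0 counts in that library. Only 8 of these 15 had enough counts to be tested, and the sum of the list lay inside its group, so the zeros do not describe the list. The part of any of these cell types in the levels of the cell cycle genes was not tested. The red cell sum includes the globin genes HBA1, HBAD and HBBA, and the libraries were made with a Ribo-Zero Globin kit. The effect of the kit on that sum was not tested either.

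Across the groups, the sums for T and NK cells ran over 90.6 to 142 CPM in Cornish at 10 weeks, 137 to 259 CPM in Ogye at 10 weeks, 109 to 344 CPM in Cornish at 5 weeks and 102 to 252 CPM in Ogye at 5 weeks, and IL7R was the 1 of 17 genes called lower in Cornish at 10 weeks. Heterophil markers ran over 30.2 to 132 CPM, 469 to 1130 CPM, 161 to 471 CPM and 73.1 to 215 CPM in the same 4 groups, with 6 of 9 genes called lower in Cornish at 10 weeks. Macrophage markers ran over 1920 to 2500 CPM, 1470 to 2120 CPM, 1530 to 1930 CPM and 2120 to 4010 CPM, with 7 of 13 called lower in Cornish at 5 weeks, and 2 higher and 7 lower in the fit without the outlying library. Hepatocyte markers ran over 274000 to 302000 CPM, 282000 to 417000 CPM, 150000 to 251000 CPM and 223000 to 279000 CPM, with 9 of 16 higher at 10 than at 5 weeks in Cornish, and 3 of 16 in the fit without the outlying library. Of all tested genes 3.59% were called lower in Cornish at 10 weeks, 12.3% lower in Cornish at 5 weeks and 4.07% higher with age in Cornish. Without the outlying library 5.52% were called higher and 10.9% lower at 5 weeks, and 2.29% higher with age in Cornish. The part of the markers in the differences of the cell cycle genes was not tested.

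**Figure D5:**
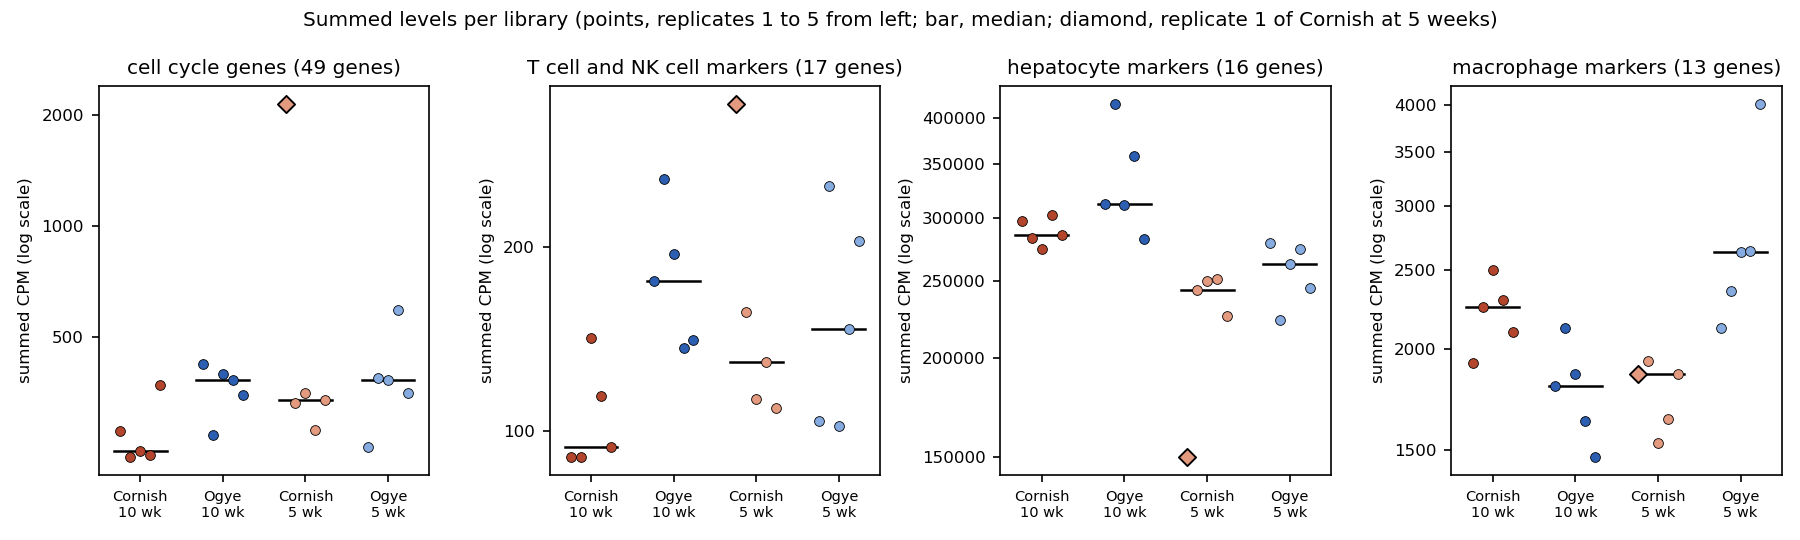
Summed CPM (log scale) of the 49 cell cycle genes in the table and of the markers of T and NK cells, hepatocytes and macrophages in each library, drawn as in the plot of 10 genes. The diamond, replicate 1 of Cornish at 5 weeks, is highest for the cell cycle genes (2140 CPM) and the T and NK cell markers (344 CPM), lowest for the hepatocyte markers (150000 CPM) and inside its group for the macrophage markers (1860 CPM).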

How the data were processed

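Liver RNA was extracted with RNeasy Mini columns and a stranded TruSeq total RNA kit (Ribo-Zero Globin) was used for the libraries, per the labels' protocols. The deposited values are raw counts per entry for 20 libraries. FastQC, MultiQC, STAR, featureCounts and the build GRCg7b are named in the submitters' processing notes; not given in the sources used here are versions, the strand setting and how reads shared by genes were treated. Of 54062 entries, 13956 carry a symbol, 40097 are assembled loci and 9 have no gene name. Those 9 held 0.0126 to 0.0593% of a library's counts and were left out. Their share was at most 0.0189% in each library at 10 weeks and at least 0.0325% in each at 5 weeks. The cause of that split, and its part in the changes with age, was not tested. No column lacked a sample.

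Counts of named entries were filtered with filterByExpr, scaled by TMM and fitted with a mean per group in edgeR 4.0.16 (glmQLFit, robust, and glmQLFTest; R 4.3.3), with Benjamini-Hochberg adjustment over all tested genes and a threshold of 0.05. The code was tested on simulated data. Alternatives were DESeq2 1.42.0, limma 3.58.1 voom with quality weights, relative log expression factors, no filter, 1 CPM in 5 libraries, all entries, the compared groups alone, a replicate block, each library left out, and sets of libraries left out.

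The genes and lists were chosen with earlier results of these data known. Values in every library were given for a set of 12 genes, 10 of which the table holds, and for up to 6 further called genes per comparison. Of each pathway list up to 4 called genes per comparison, and of each marker list up to 3 genes of highest level, were named; FOXM1, GZMA, BRCA1, RSAD2, MX1 and genes named for their position in a library were chosen after their values were seen. Counting error covers only part of the spread between libraries. A planned search of promoters for motifs was not run, and sequences were not used here.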

Additional observations from a re-analysis of the deposited data

Results flagged for a closer look

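Of 192 sets of 5 libraries, each a gene in a group, 47 had 1 library separated from the other 4 by more than 0.71 of the range on the log2 scale. Chance gives about 1 in 20 for a single set. The sets share the same 20 libraries and are not independent, and 39 of the 47 are 1 library already known to be high. The count is therefore a description and cannot be tested against that rate.

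Replicate 1 of Cornish at 5 weeks was the separate library, and high, for 39 genes. Among cyclins, kinases and E2F1 its levels were 8.26 CPM for CCNE2, 62.4 for CCNA2, 20.3 for CCNB3, 58.2 for CDK1, 21.8 for CDK2 and 37.7 CPM for E2F1. At the fork they were 99.8 CPM for MCM2, 76.4 for MCM3, 75.9 for MCM4, 58.4 for MCM5, 97.7 for MCM6, 12 for GINS1, 25.1 for POLA1, 119 for PCNA and 40.1 CPM for FEN1. In nucleotide supply they were 44.5 CPM for RRM1, 136 for RRM2, 26.4 for TYMS and 80.2 CPM for TK1. In chromosome structure they were 57.8 CPM for UHRF1, 73.6 for CDCA7, 85.1 for TOP2A, 83.0 for SMC2, 83.5 for SMC4 and 24.3 CPM for NCAPG. Mitotic kinases had 20.2 CPM for AURKA, 17.9 for PLK1, 19.5 for BUB1B and 5.39 CPM for MELK. The spindle group had 34.3 CPM for KIF11, 42.7 for KIF15, 18.6 for KIF2C, 35.2 for CENPE and 45.1 CPM for TPX2. The cytokinesis group had 30.2 CPM for KIF20A, 24.3 for PRC1, 15.6 for ANLN, 15.2 for ECT2 and 13.9 CPM for RACGAP1.

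Replicate 5 of Cornish at 10 weeks was high for CDC45 (2.17 CPM), MCM2 (21.0 CPM), MCM5 (6 CPM) and MCM6 (16.6 CPM). Replicate 4 of Ogye at 5 weeks was high for MCM6, at 23.2 CPM, and replicate 3 of that group for KIF23, at 11.0 CPM. Replicate 2 of Ogye at 10 weeks was low for TK1, at 1.79 CPM, and for BUB1, at 9.28 CPM.

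With all 20 libraries the interaction in edgeR's quasi-likelihood test was called for SMC4 (-2.25, adjusted p = 0.0037) and BUB1 (-2.07, adjusted p = 0.024) on the log2 scale. Of all tested genes 10.1% were called negative there, so these 2 calls are few beside the background. For SMC4 the value was -1.58 without replicate 1 of Cornish at 5 weeks, and the call held in all 29 alternatives. The BUB1 call was lost without replicates 3, 4 and 5 of Ogye at 5 weeks.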

How the results depend on the processing

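Counts of genes called among the 48 are given in this section. The share of all tested genes called is not given for most alternatives, so those counts cannot be set beside a background. Counts under DESeq2 leave out genes to which it gave no adjusted p. The cause of each shift was not tested. Cornish minus Ogye at 10 weeks gave 1 with all 20 libraries, 0 with no filter or with the replicate block, and 2 in the compared groups alone or without replicate 1 of Cornish and replicates 3, 4 and 5 of Ogye at 5 weeks together, an alternative chosen after seeing the data and called the 4 libraries here. At 5 weeks 2 became 13 under limma-voom, 1 with the replicate block or in the compared groups alone, and 0 without those Ogye replicates or without the 4 libraries. The directions of the 13 are not given here. For 10 minus 5 weeks in Cornish 8 became 18 under DESeq2 or without the Ogye replicates, 14 over all entries, 3 under limma-voom (all lower) or without the 4 libraries (2 lower, and RRM1 higher), 2 in the compared groups alone and 1 with the replicate block. In Ogye 3 became 10 under limma-voom or in the compared groups alone, and 0 without the Ogye replicates or without the 4 libraries. The interaction went to 4 under DESeq2, and to 1 without the Ogye replicates or the 4 libraries, beside 2.

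With 1 library left out, the counts were 0 at 10 weeks for each of the 10 libraries, and 0 to 7 at 5 weeks (0 without replicate 3 or 5 of Ogye, 7 without replicate 1 of Cornish). They were 1 to 18 with age in Cornish (1 without replicate 2 at 10 weeks or 1 at 5 weeks, 18 without replicate 4 at 5 weeks), 1 to 4 in Ogye (1 without replicate 4 at 5 weeks) and 2 to 6 in the interaction (6 without replicate 4 of Cornish at 5 weeks). None of the 16 calls made with all 20 libraries changed sign in the alternatives run, whereas the 6 genes called lower in Cornish at 5 weeks without replicate 1 had positive differences with it. DESeq2 gave no adjusted p for 18 of the 48 genes. Same-numbered libraries had deviations correlated between -0.24 and 0.17, and at most 1 of 5 correlated best with its own number, so the block stands for a number only. Low counts limit 18 of the 48 genes, which had under 10 counts in some library.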
